A study of Mus musculus with 2 samples.

Results

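Integrins are heterodimers of an alpha and a beta subunit that bind cells to the extracellular matrix or to other cells, and adaptor proteins link their short cytoplasmic tails to actin at focal adhesions. The genes described here are the integrin subunits, taken as every gene symbol that starts with Itga or Itgb apart from the Itgb1bp and Itgb3bp names, and 15 named adaptors of focal adhesions. Of 18194 genes represented by the platform annotation, 39 were members, 26 integrin genes and 13 adaptors, read by 91 of the 45101 probe sets of the array. The adaptors *Ptk2* and *Fermt1* had no listed probe set and were not analysed here. Transcripts were measured in CD31+ endothelial cells sorted by FACS from the normal brain vasculature of C57BL/6 mice. One array held CD31+ Prom1+ cells (sort population CD31+CD133+) and 1 held CD31+ Prom1- cells (CD31+CD133-). Both were sorted with antibodies to Prom1, the mouse homologue of CD133, and to CD31, and neither the age of the mice nor the number pooled is given for the arrays in the sources used here.

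Each population had 1 array, so no spread between replicates could be set against any difference and no p-value was made. The direction of each difference is that of the labels. Signals are given as multiples of the median signal of the same array, and where 2 signals of a probe set stand together the first comes from the array labelled Prom1-, the second from the array labelled Prom1+. *Pecam1*, the CD31 gene, had 48.2 and 69.2 times the median. *Prom1* itself did not separate the arrays, with 196 and 159 times the median. As the RNA came from bulk sorted cells, fewer cells of a type and less RNA per cell cannot be told apart.

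In brain vessels endothelial cells rest on a basement membrane of laminins, collagen IV, nidogens and perlecan. Laminins are bound by the alpha3, alpha6 and alpha7 subunits, collagens by alpha1, alpha2, alpha10 and alpha11, and RGD proteins such as fibronectin and vitronectin by alpha5, alpha8, alphaV and alphaIIb. Most of these alpha subunits pair with beta1. Talins and kindlins bind the beta tail and switch integrins to the active form, the complex of ILK, PINCH and parvin joins the tail to actin, and vinculin, paxillin, p130Cas and zyxin build the plaque that forms around them.

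A floor of 1.67 times the median was set under the signals, as lower signals were not taken as measured. Where 1 of a pair of signals was lower than this, the fold is written as "at least", and where both were, no fold is given. Of the 39 members 28 reached the floor on at least 1 array, 23 of them on both arrays. All 13 adaptors were among these 23, while 11 of the 26 integrin genes were under the floor on both arrays. The 27 control probe sets for *Bacillus* genes, which match no mouse transcript, had at most 0.276 and 0.234 times the median.

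**Figure D1:**
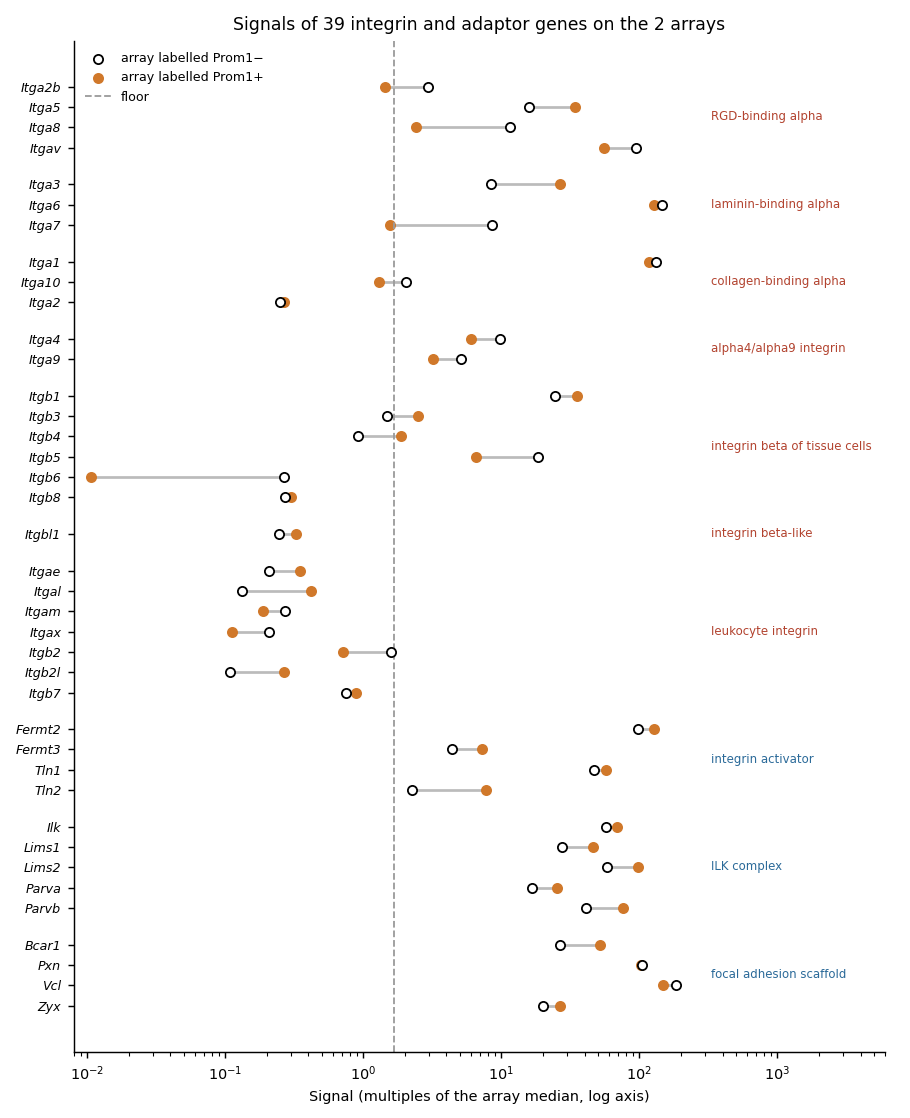
Signal of each of the 39 genes on both arrays, in multiples of the array median on a log axis. Open circles are the array labelled Prom1-, filled circles the array labelled Prom1+, grey bars join the signals of 1 gene and the dashed line is the floor of 1.67 times the median. The 13 adaptors lie to the right of the floor on both arrays, and the 7 leukocyte integrin genes lie to its left.

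In the array labelled Prom1+, 3 integrin genes were lower and 2 were higher by at least 2-fold. The lower ones were *Itga7*, *Itga8* and *Itgb5*, and the higher ones were *Itga3* and *Itga5*. Of the adaptors, *Tln2* was at least 2-fold higher and the other 12 differed by less. Of all genes on the array, 10793 had a signal above the floor in at least 1 population, and 28.2% of these were higher and 4.77% were lower in the array labelled Prom1+ by 2-fold or more. Of the 28 members that reached the floor, 3 (10.7%) were higher and 3 (10.7%) were lower. The median log2 ratio was 0.27 over the 28 members, -0.28 over the 15 integrin genes and 0.61 over the 13 adaptors, beside 0.66 over all genes. Log2 ratios below 0 were found in 10 of the 15 integrin genes and 2 of the 13 adaptors, beside 1931 of all 10793 genes.

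The number of differences depended on how the arrays were scaled. With both arrays scaled to the same trimmed mean, 2 members were higher and 7 lower, beside 8.08% and 7.91% of all genes. With quantile normalization 1 was higher and 7 were lower, and with loess correction of the ratio along the signal none was higher and 6 were lower. Of all genes, 6.38% were higher and 7.79% lower with quantile normalization, and 5.55% were higher and 7.87% lower after loess. With the hybridization controls set equal, 16 members were higher and 2 were lower, beside 79.4% and 1.74% of all genes. The median log2 ratio of all genes was 0.13 with the same trimmed mean, 0.095 with quantile normalization, 0.041 with loess and 1.64 with the hybridization controls set equal. *Itga7* and *Itga8* were at least 2-fold lower in each of them, and *Itgb5* in each but the last.

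The promoters of the members that differed are shown so that their sequences stand beside the values. The table of promoter sequences, from RefSeq for GRCm38.p6, held 28 of the 39 members and 4 of the 6 that differed. Each window is the 250 bases before the annotated start, in the direction of transcription. Capitals mark GGGCGG, the GC box, or its reverse complement, and CCGGAA, an ETS factor core. *Itga3* had a further window, chr11:95069199-95069448, which is not shown. It held 1 GC box and no CCGGAA, with a G+C content of 50.8%.

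Itga3, higher, chr11:95076715-95076964, minus strand: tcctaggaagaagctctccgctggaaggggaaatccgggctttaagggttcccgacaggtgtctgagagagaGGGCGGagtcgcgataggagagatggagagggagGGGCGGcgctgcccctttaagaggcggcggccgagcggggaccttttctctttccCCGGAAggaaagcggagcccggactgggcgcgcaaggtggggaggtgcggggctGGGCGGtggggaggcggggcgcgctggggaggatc
Itga5, higher, chr15:103366792-103367041, minus strand: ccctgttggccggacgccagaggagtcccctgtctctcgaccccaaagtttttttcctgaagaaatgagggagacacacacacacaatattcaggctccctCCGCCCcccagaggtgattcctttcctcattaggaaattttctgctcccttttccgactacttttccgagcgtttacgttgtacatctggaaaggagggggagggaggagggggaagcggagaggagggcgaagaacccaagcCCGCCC
Itga8, lower, chr2:12301945-12302194, minus strand: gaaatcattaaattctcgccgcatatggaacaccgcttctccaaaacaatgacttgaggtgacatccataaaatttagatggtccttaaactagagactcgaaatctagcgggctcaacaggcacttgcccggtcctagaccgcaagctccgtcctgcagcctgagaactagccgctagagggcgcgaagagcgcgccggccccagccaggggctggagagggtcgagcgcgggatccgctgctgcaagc
Itgb5, lower, chr16:33829415-33829664, plus strand: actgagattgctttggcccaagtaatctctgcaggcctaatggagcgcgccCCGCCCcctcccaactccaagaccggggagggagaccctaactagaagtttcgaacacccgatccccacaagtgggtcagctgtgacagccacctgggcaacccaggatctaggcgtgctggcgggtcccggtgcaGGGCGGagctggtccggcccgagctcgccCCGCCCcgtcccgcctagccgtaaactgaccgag

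GC boxes were found on either strand in the windows of *Itga3*, *Itga5* and *Itgb5* and not in that of *Itga8*, so that they occurred among the higher and the lower genes. Of all 32851 windows of this length in the table, 32.7% held a GC box, 12% held CCGGAA and 12.4% held TATAAA. Of the 28 members 14 had a window with a GC box, 3 (*Ilk*, *Itga3* and *Lims1*) had one with CCGGAA and 1 (*Lims1*) had one with TATAAA. The CArG box, bound by serum response factor and known from genes of the actin cytoskeleton, was found in 1.47% of all windows. It was found in windows of 3 members, *Vcl*, *Fermt2* and *Itgb6*. The shares are per window, and the 28 members had 34 windows. Of these windows 16 held a GC box, 4 held CCGGAA, 1 held TATAAA and 3 held a CArG box. The G+C content of the windows shown was 67.6% for *Itga3*, 55.6% for *Itga5*, 56.4% for *Itga8* and 65.2% for *Itgb5*.

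The laminin-binding alpha subunits went in different directions. *Itga3*, whose product binds laminins of the basement membrane, had 8.34 and 26.6 times the median, 3.19-fold higher in the array labelled Prom1+. Another probe set, at 7.20 and 24.3 times, was 3.37-fold higher, and 1 more, at 1.11 and 2.87 times, was at least 1.72-fold higher. *Itga6*, the laminin receptor subunit found on most brain endothelium, had 145 and 127 times the median and its other probe set had 61.0 and 71.5 times, so that the probe sets lay on either side of equality. *Itga7*, known as the laminin receptor subunit of muscle, had 8.53 and 1.57 times the median, the latter under the floor. It was at least 5.09-fold lower by its only listed probe set.

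Among the subunits that bind RGD proteins, *Itga5* was higher and *Itga8* was lower. *Itga5*, the fibronectin receptor subunit, had 15.8 and 34.0 times the median, 2.15-fold higher. A second probe set, at 2.09 and 4.14 times, was 1.98-fold higher, and of the other 2 probe sets neither reached the floor in the array labelled Prom1+. *Itga8*, a subunit expressed by mesenchymal and smooth muscle cells, had 11.6 and 2.41 times, 4.82-fold lower, and its second probe set was under the floor on both arrays. *Itgav*, which pairs with several beta subunits and binds vitronectin, had 95.2 and 55.2 times, 1.73-fold lower, by the only one of its 5 probe sets that reached the floor. *Itga2b*, the platelet fibrinogen receptor subunit, had 2.95 and 1.44 times, at least 1.76-fold lower.

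Of the subunits that bind collagens, *Itga1*, common in the microvasculature, had 132 and 116 times the median. Its other probe set had 28.1 and 45.3 times, 1.61-fold higher, so that the sign of the difference was not the same for the 2 probe sets. *Itga10*, known from cartilage, had 2.03 and 1.29 times the median, at least 1.21-fold lower. *Itga2*, the collagen receptor subunit of platelets and epithelia, was under the floor at 0.25 and 0.267 times.

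The related subunits *Itga4* and *Itga9*, which bind Vcam1 and other ligands, both had lower signals in the array labelled Prom1+ without reaching 2-fold. *Itga4* had 9.84 and 6.03 times the median, 1.63-fold lower, and its second measured probe set was 1.47-fold lower. *Itga9* had 5.08 and 3.18 times, 1.60-fold lower.

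The beta subunits differed from each other as well. *Itgb1*, the common partner of most alpha subunits, had 24.6 and 35.1 times the median, 1.43-fold higher. The other probe set of *Itgb1* that was measured on both arrays had 25.1 and 29.2 times, and 1 more, at 3.07 and 1.00 times, was at least 1.84-fold lower. The log2 ratios of the 10 alpha subunits that can pair with beta1 and reached the floor ran from -2.35 to 1.67, with 2 above 0 and 8 below 0, beside 0.51 for *Itgb1*. *Itgb5*, a partner of alphaV, had 18.3 and 6.59 times the median, 2.78-fold lower. Its other 3 probe sets were 3.18-fold, 2.28-fold and 2.77-fold lower, so that all 4 passed 2-fold.

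*Itgb3*, the other vascular partner of alphaV, was close to the floor, with 1.49 and 2.50 times, at least 1.49-fold higher. *Itgb4*, the partner of alpha6 in hemidesmosomes, had 0.916 and 1.88 times, at least 1.12-fold higher. *Itgb6*, *Itgb8* and the integrin-like gene *Itgbl1* were under the floor on both arrays, at most 0.325 times the median. The 7 leukocyte integrin genes *Itgal*, *Itgam*, *Itgax*, *Itgae*, *Itgb2*, *Itgb2l* and *Itgb7* were also under the floor on both arrays. *Itgb2*, the common beta subunit of leukocytes, was nearest to it with 1.58 and 0.707 times. Of the 11 genes under the floor, *Itgam*, *Itgax* and *Itgb6* lay within the range of the *Bacillus* controls on both arrays.

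Of the integrin activators, *Tln2* differed most. Talin 2, the less widespread of the talins, had 2.24 and 7.71 times the median, 3.44-fold higher. Another probe set, at 1.5 and 5.35 times, was at least 3.20-fold higher. *Tln1*, the talin of most cells, had 47.2 and 57.5 times, 1.22-fold higher, while a probe set of lower signal, at 2.29 and 4.74 times, was 2.07-fold higher. *Fermt2* (kindlin-2) had 97.5 and 128 times, and its other probe sets gave 14.8 and 36.3 times, 2.46-fold higher, and 3.03 and 2.90 times. *Fermt3* (kindlin-3), known from blood cells, had 4.41 and 7.20 times, 1.63-fold higher. Its other measured probe sets were 1.07-fold and 1.32-fold higher.

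The genes of the ILK complex had log2 ratios from 0.26 to 0.90, and none reached 2-fold by the probe set that stood for it. *Ilk*, the pseudokinase at its center, had 56.8 and 68.2 times the median. The PINCH genes *Lims1*, at 27.5 and 46.1 times, and *Lims2*, at 58.2 and 97.3 times, were 1.68-fold and 1.67-fold higher. The parvin genes *Parva*, at 16.6 and 25.2 times, and *Parvb*, at 40.8 and 76.3 times, were 1.52-fold and 1.87-fold higher. All 5 log2 ratios lay within 0.54, the SD between probe sets of a gene, of the median of all genes, 0.66. One further probe set of *Lims1* differed from the others, at 5.49 and 1.36 times, at least 3.28-fold lower. The other probe set of *Parva*, at 0.754 and 3.72 times, was at least 2.22-fold higher, and it stood for the gene where _x_at and _s_at probe sets were left out.

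Of the scaffold proteins of the plaque, *Bcar1* (p130Cas), a substrate of Src kinases, came nearest to 2-fold, at 26.5 and 51.9 times the median, 1.96-fold higher. Its other probe set, at 8.23 and 12.6 times, was 1.53-fold higher. *Pxn* (paxillin) had 104 and 103 times by one probe set and 54.4 and 83.0 times, 1.53-fold higher, by another. *Vcl* (vinculin), which binds talin and actin, had 185 and 148 times, 1.25-fold lower, while its other probe set, at 1.08 and 3.08 times, was at least 1.84-fold higher, and the mean over both probe sets was a log2 ratio of 0.28. *Zyx* (zyxin) had 19.9 and 26.4 times, 1.32-fold higher. No scaffold gene differed by 2-fold by the probe set that stood for it.

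**Figure D2:**
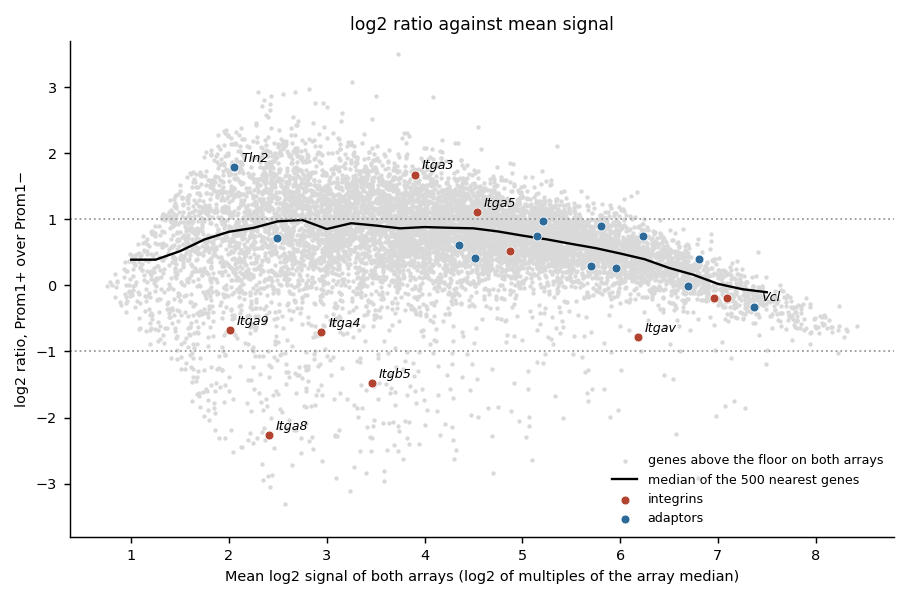
Log2 ratio of the array labelled Prom1+ over the array labelled Prom1- against the mean of the log2 signals, which are log2 of multiples of the array median. Points in grey show the 9360 genes above the floor on both arrays, the black line is the median of the 500 genes nearest in signal, red points are integrins, blue points are adaptors and dotted lines mark 2-fold. The line is lower at the weakest signals, lies near 0.91 between mean log2 signals of 2 and 3 and falls below 0 above 7, and of the 23 members shown 8 lie above it.

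The ratio between the arrays varied with signal, so each member measured on both arrays was set beside the 500 genes nearest in mean log2 signal. For genes with a mean log2 signal between 2 and 3 the median log2 ratio was 0.91, and between 7 and 8 it was -0.21. Of the 13 adaptors 6 lay above the median of their neighbors, and their differences from it ran from -0.45 for *Zyx* to 0.97 for *Tln2*. Of the 10 integrin genes measured on both arrays 2 lay above it, *Itga3* by 0.79 and *Itga5* by 0.25. *Vcl*, *Itga1* and *Itga6*, with lower signals in the array labelled Prom1+, lay 0.24, 0.24 and 0.18 below the median log2 ratio of genes of like signal. *Itga8* lay 3.25 below it, *Itgb5* 2.36, *Itga4* 1.58, *Itga9* 1.49 and *Itgav* 1.21. These differences describe 1 pair of arrays and have no error between animals.

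**Figure D3:**
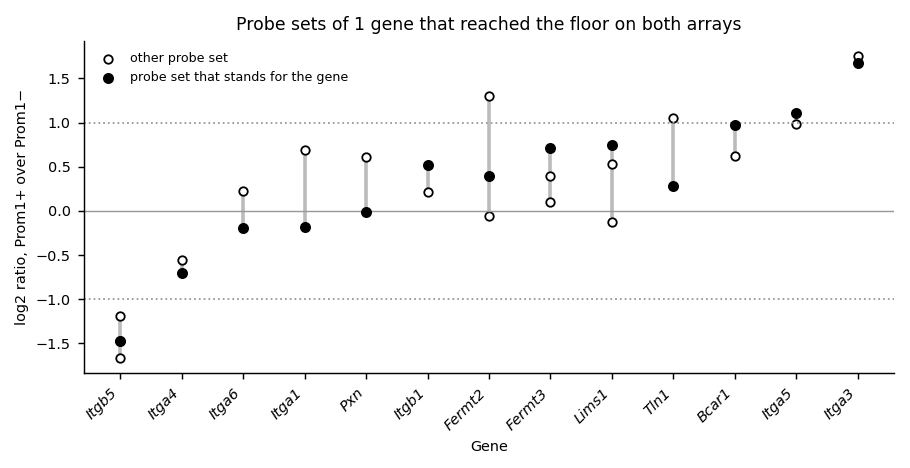
Log2 ratio of the array labelled Prom1+ over the array labelled Prom1- for the 13 members with more than 1 probe set above the floor on both arrays. Each point is a probe set, filled where it stands for the gene, grey bars span the range and dotted lines mark 2-fold. The probe sets of *Itgb5* all lie below -1 and those of *Itga3* all lie above 1, while those of *Fermt2* span 1.36.

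Several probe sets that read the same gene showed how far the ratio varied with the probe set used. Within genes the SD of the log2 ratio was 0.39 over 31 probe sets of 13 members and 0.54 over all 3930 genes with more than 1 such probe set. The spread between animals is not part of it. The range within a gene was smallest for *Itga3*, 0.08, and largest for *Fermt2*, 1.36. It was 0.88 for *Itga1* and for *Lims1*, 0.76 for *Tln1* and 0.48 for the 4 probe sets of *Itgb5*. Measured from a log2 ratio of 0, the differences of *Itga3*, *Itga7*, *Itga8*, *Itgb5* and *Tln2* were each over 2 times the SD of 0.54. That of *Itga5*, a log2 ratio of 1.10, was also over 2 times this SD but its second probe set, at 0.98, was under it. Set against the median of genes of like signal, *Itga8* and *Itgb5* differed by -3.25 and -2.36, also over 2 times the SD. *Itga3*, *Tln2* and *Itga5* differed from that median by 0.79, 0.97 and 0.25, under 2 times the SD. *Itga7*, under the floor in the array labelled Prom1+, was not set against it. With 1 listed probe set, *Itga7* also gave no value to the SD.

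Genes of the same pathway that are no members were counted by the same rule. Among 26 measured matrix ligands of integrins 2 were higher and 2 were lower by 2-fold, and 22 differed by less, with a median log2 ratio of 0.07. The shares were 7.69% each way, beside 28.2% of all genes higher and 4.77% lower. *Fn1* (fibronectin), the ligand of alpha5 beta1, had 162 and 153 times the median, *Col4a1* had 140 and 149 times, *Col4a2* 122 and 138 times and *Lamb2* 112 and 104 times. The basement membrane genes *Nid2*, at 5.65 and 13.3 times, and *Lamc3*, at 2.12 and 4.89 times, were 2.36-fold and 2.30-fold higher. The collagen I gene *Col1a2*, at 12.9 and 2.35 times, was 5.49-fold lower. *Vtn* (vitronectin), at 138 and 69.2 times, was 2.00-fold lower, at the threshold. With the same trimmed mean, quantile normalization or loess none of the ligands was higher and 4 were lower. Under these scalings 8.08%, 6.38% and 5.55% of all genes were higher, and 7.91%, 7.79% and 7.87% were lower. The log2 ratios of *Nid2* and *Lamc3* under loess were 0.35 and 0.59. With the hybridization controls set equal 14 were higher, beside 79.4% of all genes, and 1, *Col1a2*, was lower.

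Of 14 measured cell-surface and secreted partners of integrins, 4 were at least 2-fold higher, none was lower and 10 differed by less, with a median log2 ratio of 0.54. The share that was higher was 28.6%, beside 28.2% of all genes. *Plaur*, the urokinase receptor, had 4.35 and 12.5 times the median, 2.87-fold higher, and *Vcam1*, the ligand of alpha4 beta1, was 2.45-fold higher at 25.9 and 63.3 times. The others were the leukocyte ligands *Icam1*, 2.31-fold higher, and *F11r*, 2.09-fold higher, both named after their values were seen. The tetraspanin *Cd151*, a partner of laminin-binding integrins, had 104 and 119 times and *Cd81* had 203 and 137 times. Where _x_at and _s_at probe sets were left out, *Cd151* had a log2 ratio of 1.03, in place of 0.19. *Icam2* had 116 and 129 times and *Vwf*, a ligand of platelet integrins, 126 and 159 times. None of these partners was 2-fold higher with the same trimmed mean, quantile normalization or loess. The shares of all genes that were higher under these scalings were 8.08%, 6.38% and 5.55%. Under loess *Plaur* and *Vcam1* had log2 ratios of 0.65 and 0.64. With the hybridization controls set equal 13 were higher, beside 79.4% of all genes.

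Of 32 measured kinases, GTPases and exchange factors of adhesions, 6 were at least 2-fold higher and 1 was lower, with a median log2 ratio of 0.67. The shares were 18.8% higher and 3.1% lower, beside 28.2% and 4.77% of all genes. *Arhgap26* (GRAF), a protein that binds FAK, had 2.55 and 10.6 times, 4.15-fold higher. *Arhgef6* (alpha-PIX), an exchange factor for Rac and Cdc42, was 3.26-fold higher at 2.86 and 9.32 times. The receptor phosphatase *Ptprf* was 2.12-fold lower at 12.2 and 5.73 times. The GTPases *Rap1b*, at 211 and 181 times, *Cdc42*, at 148 and 124 times, *Rac1*, at 133 and 130 times, and *Rhoa*, at 105 and 133 times, each differed by less than 2-fold. The log2 ratio of *Rhoa*, 0.34, was 0.98 by the mean over its probe sets and 0.74 without _x_at and _s_at probe sets. Under loess 1 gene of this list, *Arhgap26*, was higher and 2 were lower, beside 5.55% and 7.87% of all genes. *Arhgef6* had a log2 ratio of 0.84 under loess. With the same trimmed mean or quantile normalization 2 were higher and 2 lower. The shares of all genes were 8.08% and 7.91% with the same trimmed mean, and 6.38% and 7.79% with quantile normalization. With the hybridization controls set equal 26 were higher, beside 79.4% of all genes, and none was lower.

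Of 38 measured actin linkers and other adaptors of adhesions, 6 were at least 2-fold higher and 2 were lower, with a median log2 ratio of 0.32. The shares were 15.8% higher and 5.26% lower, beside 28.2% and 4.77% of all genes. The Ena/VASP protein *Evl*, at 6.10 and 25.2 times the median, was 4.14-fold higher, and the membrane linker *Ezr* (ezrin) was 2.88-fold higher at 9.26 and 26.6 times. *Palld* (palladin), an actin-bundling protein, was 2.97-fold lower at 90.5 and 30.5 times, and *Tns3* (tensin 3), which binds beta tails, was 2.05-fold lower at 31.1 and 15.1 times. *Vim* had 400 and 252 times, *Msn* 175 and 131 times, *Cav1* 152 and 138 times and *Plec* 90.8 and 112 times. With the same trimmed mean, quantile normalization or loess *Evl* alone of this list was 2-fold higher, with 4, 3 and 3 genes lower. Under these scalings 8.08%, 6.38% and 5.55% of all genes were higher, and 7.91%, 7.79% and 7.87% were lower. *Ezr* had log2 ratios of 0.98, 0.76 and 0.66 under them. With the hybridization controls set equal 27 were higher, beside 79.4% of all genes, and none was lower.

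**Figure D4:**
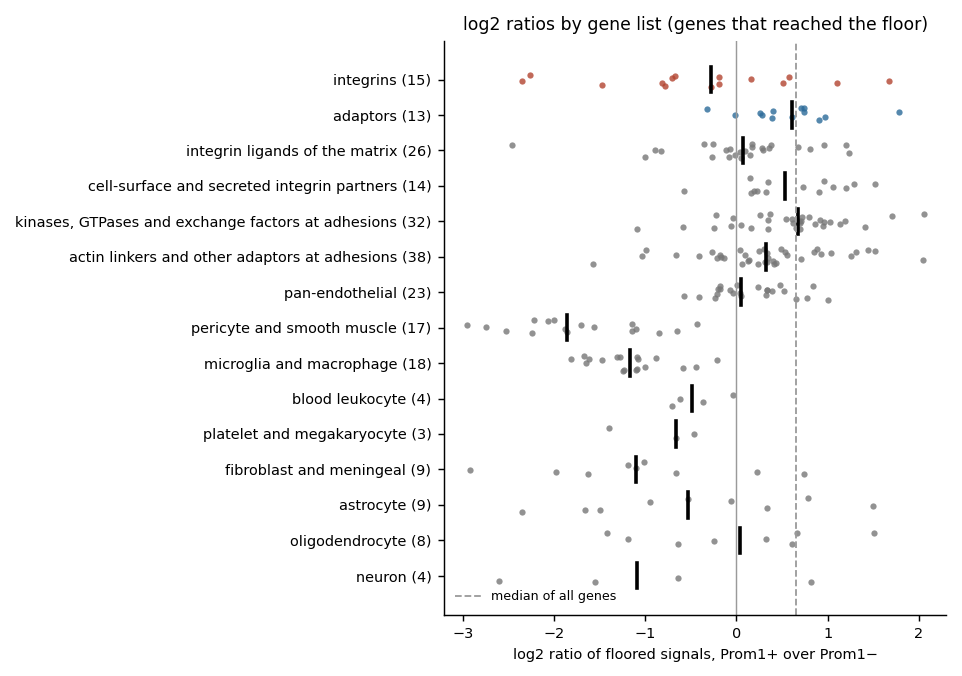
Log2 ratio of floored signals, array labelled Prom1+ over array labelled Prom1-, for the genes of each list with a signal above the floor in either array, with their number in brackets. Each point is a gene, black bars are medians and the dashed line is the median of all genes, 0.66. The medians of integrins and adaptors lie at -0.28 and 0.61, and that of pericyte and smooth muscle genes at -1.85.

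Most measured markers of pericytes and smooth muscle, of fibroblasts and meninges, and of microglia and macrophages had lower signals in the array labelled Prom1+. Those of astrocytes, oligodendrocytes and neurons went in both directions. All 17 pericyte and smooth muscle markers reached the floor, 15 of them on both arrays. In the array labelled Prom1+, 14 were lower by 2-fold or more and none was higher, beside 4.77% and 28.2% of all genes. The summed signal of the 17 markers was 1332 and 443 times the median. *Acta2*, the actin of smooth muscle, was 3.62-fold lower at 295 and 81.6 times. *Rgs5* was 2.15-fold lower at 206 and 95.9 times, and *Mylk*, at 178 and 98.4 times, was 1.80-fold lower. Of 9 measured fibroblast and meningeal markers 6 were lower and none was higher by 2-fold, with a summed signal of 626 and 233 times over the 12 listed. Their part in the lower signals of *Itga7*, *Itga8*, *Itgb5* and *Itgav* was not tested.

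All 18 microglia and macrophage markers were above the floor, with a summed signal of 482 and 230 times. Among them 14 were lower and none higher by 2-fold, beside 4.77% and 28.2% of all genes. *C1qb* had 78.7 and 31.8 times and *Ctss* 79.1 and 32.6 times, while the microglial integrin genes *Itgam* and *Itgb2* were under the floor on both arrays. Of 13 blood leukocyte markers 4 reached the floor and none differed by 2-fold. The brightest were *Coro1a*, at 9.13 and 5.96 times, *Cd52*, at 2.97 and 2.31 times, and *Ncf1*, at 2.73 and 1.13 times. *Ptprc*, another of these markers, was under the floor at 0.667 and 0.648 times. The summed signal of the 13 markers was 19.2 and 13 times. Of 9 platelet markers 3 reached the floor, each in the array labelled Prom1- alone, among them *Pf4* at 4.42 and 1.37 times, at least 2.64-fold lower. The summed signal of the platelet markers was 10.7 and 4.90 times the median, and their part in the signal of *Itga2b* was not tested.

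Of 9 measured astrocyte markers 3 were lower and 1 was higher, beside 4.77% and 28.2% of all genes. The summed signal over the 12 listed was 398 and 303 times. The brightest were *Glul*, at 235 and 163 times, *Gja1*, at 67.0 and 84.5 times, and *Atp1b2*, 3.15-fold lower at 31.2 and 9.89 times. *Gfap*, *Aqp4* and *Aldh1l1* were under the floor. Of 8 measured oligodendrocyte markers 2 were lower and 1 was higher, with a summed signal of 557 and 363 times over 12, and of 4 measured neuron markers 2 were lower, with a median log2 ratio of -1.09. Their summed signal, 66.0 and 81.3 times over 9, was mostly that of *Stmn2*, at 45.1 and 79.5 times, while *Snap25*, *Syt1* and *Nefl* reached the floor in the array labelled Prom1- alone. In contrast, 22 of 23 pan-endothelial markers differed by less than 2-fold and 1 was higher, beside 28.2% of all genes that were higher. These markers had a median log2 ratio of 0.047 and a summed signal of 2707 and 2668 times. With the pan-endothelial genes set equal, the same 6 members differed by 2-fold as without it. With the hybridization controls set equal, 14 of the pan-endothelial markers were higher, and 6 of the pericyte and smooth muscle markers and none of the microglia and macrophage markers were lower by 2-fold. Of all genes, 79.4% were higher and 1.74% lower under this scaling.

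**Figure D5:**
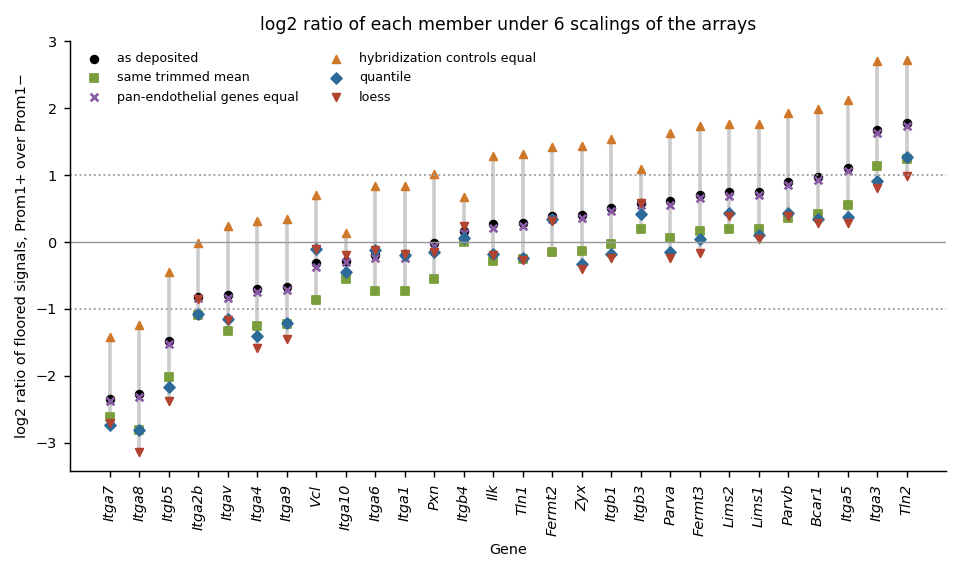
Log2 ratio of floored signals, array labelled Prom1+ over array labelled Prom1-, of the 28 members that reached the floor, under 6 scalings of the arrays. Each marker is a scaling, grey bars span the lowest to the highest value and dotted lines mark 2-fold. The values of *Itga7* and *Itga8* lie below -1 under all 6 scalings, and those of *Tln2* and *Itga3* lie above 0.

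Across the 6 scalings of the arrays, counting the deposited one, 13 of the 28 members never had log2 ratios of both signs, among them *Itgb4*, which was at 0 with the same trimmed mean. *Itga7* ran from -2.73 to -1.42 on the log2 scale, *Itga8* from -3.13 to -1.24, *Itgb5* from -2.38 to -0.45 and *Itga2b* from -1.09 to -0.016. *Tln2* ran from 0.99 to 2.72, *Itga3* from 0.81 to 2.70 and *Itga5* from 0.29 to 2.13, so that none of these 3 reached 2-fold under loess. *Itgav*, *Itga4* and *Itga9* were below 0 under 5 scalings and above 0 with the hybridization controls set equal, at 0.24, 0.32 and 0.35. Under loess, *Itgav*, *Itga4* and *Itga9* were at least 2-fold lower, with log2 ratios of -1.16, -1.58 and -1.46. The median of the adaptors was above that of the integrins under each of the 6 scalings, by 0.13 with loess to 1.28 with the hybridization controls set equal. The differences with loess and with quantile normalization, 0.13 and 0.37, were under the SD of 0.54 between probe sets of a gene. Under loess both medians were below 0, at -0.10 for the adaptors and -0.24 for the integrins.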

How the data were processed

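RNA of CD31+CD133- and of CD31+CD133+ cells was hybridized to 1 Affymetrix Mouse Genome array each. The authors amplified the RNA and labeled it with biotin, set the array signals to a common target of 500, applied the GeneSpring normalization, and the submitters' processing notes name MAS5. The deposited values are log2 signals relative to the median of the same array (median 0 in both, lowest value -6.64). In the sources used here, neither the step that set the median to 0 nor the number of mice is given. The number of arrays limits the precision.

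The floor, 100 where the target is 500, came to 1.67 times the median when the target was equated with the 2% trimmed mean, averaged over the arrays. Differences were counted where floored signals differed by at least 2-fold. The probe set with the highest mean of both signals stood for a gene. By the mean of log2 signals another probe set would have stood for 2 members, *Itgb5* and *Itgb6*. The platform annotation gave 1 symbol to 34958 probe sets, several to 932, which were left out, and did not list 9211. The identifiers of all 39 members were found in the mouse RefSeq gene table, and 28 members had a window in the separate table of promoter sequences. The scalings were tried as set out in the closing section, and their use on the pathway and marker lists was chosen after seeing the data. Loess used a span of 0.2.

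The members and lists were chosen with earlier results of these data known. Named are every member, of each pathway list the 4 brightest genes and, beyond 2-fold, the 2 most changed in each direction, and of the marker lists some of the brightest and the defining genes, the latter named after their values were seen. The rules were tested on simulated data. Analyses ran in Python 3.11.15 with pandas 2.3.3, numpy 2.4.6, statsmodels 0.14.6 for loess, matplotlib 3.10.9 for plots and scipy 1.17.1.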

Additional observations from a re-analysis of the deposited data

How the results depend on the processing

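No paired analysis was possible because each population has 1 array, and no array could be left out. The floor was moved to 50 or 200 or left out, the threshold to 1.5-fold or 3-fold, the arrays were scaled in 5 other ways, a gene was read as the mean of its probe sets, or _x_at and _s_at probe sets were dropped. With no floor the counts were over all 39 members and 26 integrins, in place of 28 and 15. *Itgal* and *Itgb2l*, then counted as higher, and *Itgb2* and *Itgb6*, then counted as lower, had both signals under the floor. Members at least 2-fold higher, 3 as reported, were 6 with no floor, 16 with the hybridization controls set equal, 1 with quantile normalization, 0 with loess and 9 at 1.5-fold. Members at least 2-fold lower, also 3, were 6 with no floor, 7 with the same trimmed mean, 7 with quantile normalization, 6 with loess and 7 at 1.5-fold. Integrins higher, 2 as reported, were 5 with no floor, 1 with the same trimmed mean, 4 with the hybridization controls set equal, 0 with quantile normalization and with loess, and 1 each with the mean over probe sets, without _x_at and _s_at probe sets and at 3-fold. Integrins lower, 3 as reported, were 6 with no floor, 7 with the same trimmed mean, 7 with quantile normalization, 6 with loess and 7 at 1.5-fold. Adaptors higher, 1 as reported, were 12 with the hybridization controls set equal, 0 with loess, 2 without _x_at and _s_at probe sets and 7 at 1.5-fold.

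The median log2 ratio of the members changed sign with the same trimmed mean (-0.22), quantile normalization (-0.16) and loess (-0.17), and was 1.19 with the hybridization controls set equal. That of the integrins changed sign with the hybridization controls set equal (0.35). That of the adaptors changed sign with loess (-0.10), and was 1.63 with the hybridization controls set equal, 0.062 with the same trimmed mean and 0.051 with quantile normalization. *Vtn* changed sign with the hybridization controls set equal (0.024). The cause of these changes was not tested. The other 66 recomputed counts and medians kept within 1.5 times the count, or within the SD of 0.54 of the median, with the same sign. Of all genes 3045 were higher and 515 lower as reported, 875 and 857 with the same trimmed mean, 8644 and 189 with the hybridization controls set equal, 689 and 841 with quantile normalization and 599 and 849 with loess. They were 5124 and 3388 with no floor, 3381 and 827 at a floor of 50, 2566 and 301 at a floor of 200, 5891 and 815 at 1.5-fold and 712 and 256 at 3-fold. Signals near the floor limit what could be measured for *Itga2b*, *Itga10*, *Itgb3* and *Itgb4*. *Itga7*, *Itga8* and *Tln2* also each had 1 signal near or under the floor. At a floor of 200 their log2 ratios were -1.35, -1.80 and 1.20, in place of -2.35, -2.27 and 1.78, and each stayed past 2-fold.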
